A study of Mus musculus with 6 samples.

Results

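The neutrophil-attracting CXC chemokines were examined as a family of 7 ligand genes, Cxcl1, Cxcl2, Cxcl3, Cxcl5, Cxcl15, Ppbp and Pf4, together with the receptor gene Cxcr2. They were taken by name: every probe set, a group of array probes for one transcript, whose annotation names 1 of these genes and no other. This gave 11 of 34945 such probe sets and 8 of 18193 genes. Cxcl1 was read by 3 probe sets, Cxcl15 by a pair, and each other gene by 1.

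The samples were fibroblasts sorted by flow cytometry for PDGFRα, a surface receptor of fibroblasts, from mouse ears at 4 months of age. The cancer-associated group (CAF) was taken from male K14-HPV16 mice with dysplastic ear skin, in which the keratin 14 promoter drives human papillomavirus genes in basal keratinocytes and not in fibroblasts. The normal dermal group (NDF) was taken from the normal ears of male FVB/n mice without the transgene. Each group has 3 arrays, and 15 mice per genotype are named in all. The labels call the arrays biological repetitions but do not say that each was a separate pool of mice, so the p-values measure only the spread between these samples, which may be technical.

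CXC chemokines are small secreted proteins that bind to glycosaminoglycans on cells and matrix and form gradients along which leukocytes move. Those with the amino acids glutamate, leucine and arginine before the first cysteine act on CXCR2, a G protein-coupled receptor of neutrophils, and draw these cells out of blood. In skin, keratinocytes, fibroblasts, endothelium and leukocytes can all make them when interleukin 1, tumour necrosis factor or microbial products activate the transcription factor NF-κB. Pf4 lacks that amino acid motif and is grouped here with Ppbp as a platelet granule chemokine.

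The 7 ligand genes lie side by side on mouse chromosome 5, and Cxcr2 lies on chromosome 1. Promoter windows from 250 bases before to 50 bases after the annotated start were found in the RefSeq promoter table of GRCm38.p6 for 7 of the 8 genes. The missing entry was Cxcl5. Because the series title names NF-κB, the windows were searched on both strands for the NF-κB consensus (kappa B), and 3 of the 7 windows held it, those of Cxcl1, Cxcl2 and Cxcl3. Of all 32851 windows of the same length in that table, 4.51% held it. The 120 bases before the start are shown 5′ to 3′ for these 3 genes, and for Cxcl15 as a cluster member without a match, in GRCm38.p6 on the plus strand. Capitals mark the kappa B matches, 1 on each strand, which overlap each other.
Cxcl1, chr5:90891125-90891244: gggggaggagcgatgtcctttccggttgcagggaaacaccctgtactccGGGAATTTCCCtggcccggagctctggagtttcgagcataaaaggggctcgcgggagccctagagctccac
Cxcl2, chr5:90903779-90903898: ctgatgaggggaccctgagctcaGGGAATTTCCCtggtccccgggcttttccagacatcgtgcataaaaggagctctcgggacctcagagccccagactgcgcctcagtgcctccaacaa
Cxcl3, chr5:90785981-90786100: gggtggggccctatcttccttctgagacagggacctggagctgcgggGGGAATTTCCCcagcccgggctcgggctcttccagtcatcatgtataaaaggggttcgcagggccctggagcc
Cxcl15, chr5:90794414-90794533: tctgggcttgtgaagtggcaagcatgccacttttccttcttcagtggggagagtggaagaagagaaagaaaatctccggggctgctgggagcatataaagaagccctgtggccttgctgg

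The 3 matches carried the same 10 letters, GGGAATTTCC, on the plus strand. The match began 71 bases before the start in Cxcl1, 97 bases before it in Cxcl2 and 73 bases before it in Cxcl3. These 10 letters, searched for after the matches had been seen, occurred in 29 of the 32851 windows, or 0.0883%. A looser form with GGG, any 5 letters and CC was met in 50.8% of all windows, and among the members also in Cxcr2. The AP-1 motif TGANTCA was found in Ppbp and in 7.81% of all windows, and the C/EBP motif TTGCNNAA in Pf4 and in 10.8%. TATAAA was found in Ppbp, Cxcl3 and Cxcl15 and in 13.6%. A match is a string of letters and not evidence of binding.

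The values are log2 intensities, and the array medians lay between 4.73 and 4.87, with lower quartiles of 3.49 to 3.68. CAF replicate 3 stood apart from the other arrays. Over all genes it correlated with CAF replicates 1 and 2 at 0.938 and 0.931, whereas these correlated with each other at 0.986 and the NDF arrays among themselves at 0.981 to 0.987. Differences are CAF minus NDF with the standard error of limma, a linear model fitted to all 18193 genes, and its p-values were adjusted by Benjamini-Hochberg across all of these genes, with a threshold of 0.05. The sort marker Pdgfra lay between 12.30 and 12.66 on all 6 arrays.

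Among the family, 4 of 8 genes were past the threshold as higher in CAF, Cxcl1, Cxcl2, Cxcl3 and Cxcl5, and 0 were lower. Of all genes, 0.489% were past it as higher, 0.0275% as lower and 0.517% in either direction. The CAF arrays lay above the NDF arrays without overlap for 7 of the 8 genes, all but Cxcl15, against 6.78% of all genes, and below them for 0, against 8.66%. At an unadjusted p under 0.05, 7 were higher and 0 lower, against 4.93% and 4.02% of all genes. Differences of 4 log2 units or more were met in 4 of the 8 and in 0.236% of all genes. The median difference of the 8 genes was 3.95, and that of all genes -0.04. Because the members were chosen with results of these arrays known, these counts describe the family and are no independent test of it. In sorted bulk samples, more cells of a type and more RNA per cell cannot be told apart.

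**Figure D1:**
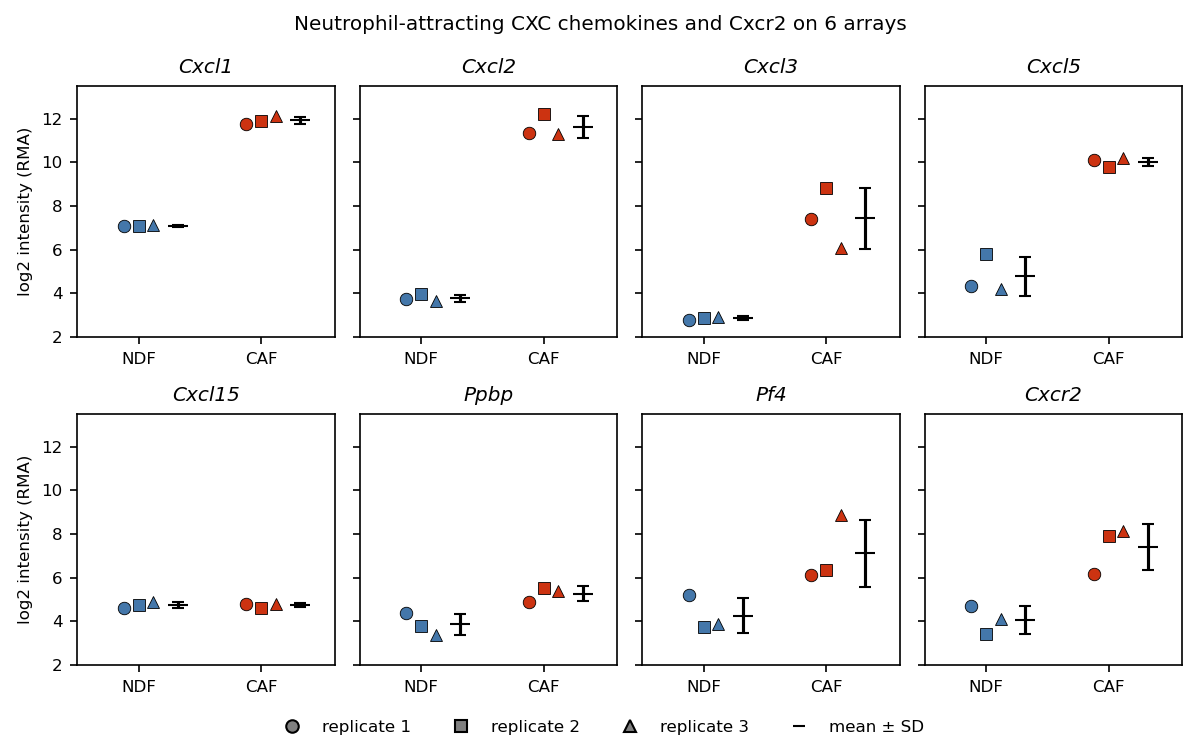
Log2 intensity of each of the 8 genes on the 3 NDF arrays (blue) and the 3 CAF arrays (red), with marker shapes for the replicate number and a bar for the mean ± SD of each group. The CAF arrays lie above all NDF arrays for every gene except Cxcl15, and the CAF arrays are widest apart for Cxcl3 and Pf4.

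Cxcl2 encodes MIP-2, a chemokine that macrophages and stromal cells release early in inflammation. It was at 3.75, 3.97 and 3.66 on the NDF arrays and at 11.34, 12.20 and 11.30 on the CAF arrays. The NDF values lay near the lower quartile of the arrays, and the lowest CAF value was 7.33 log2 units above the highest NDF value. The difference was 7.82 ± 0.28 (95% interval 7.15 to 8.49), or 226-fold on this scale, with an adjusted p of 0.000281. It ranked 1 of 18193 genes both by size of the difference and by the gap between the groups. Low RMA values are compressed towards a floor, so a fold from such a level is a value on this scale and not a ratio of transcripts.

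Cxcl1 encodes KC, the main murine counterpart of human GRO-α and a chemokine of fibroblasts, endothelium and epithelium. Its probe set of highest mean, 1441855_x_at, read 7.07, 7.09 and 7.15 in NDF and 11.78, 11.89 and 12.12 in CAF. The groups did not overlap, and the CAF arrays spread over 0.34. The difference was 4.83 ± 0.17 (95% interval 4.41 to 5.24), a 28.4-fold rise with an adjusted p of 0.000281, and it ranked 1 of all genes by p. The other Cxcl1 probe sets gave 5.22 ± 0.21 for 1457644_s_at and 5.14 ± 0.26 for 1419209_at. The first of these and the probe set used for the gene carry suffixes for probes that can match related transcripts, whereas 1419209_at carries none.

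Cxcl5 encodes LIX, a chemokine of stromal and epithelial cells. It read 4.33, 5.82 and 4.20 in NDF and 10.09, 9.79 and 10.18 in CAF. NDF replicate 2 was the high normal array, and the lowest CAF value was still 3.97 above it. The difference was 5.24 ± 0.44 (95% interval 4.20 to 6.28), or 37.7-fold, with an adjusted p of 0.00998. The adjusted p was 0.0571 without NDF replicate 1 and 0.0612 without NDF replicate 3, with differences of 5.01 and 4.94.

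Cxcl3 encodes a close relative of Cxcl2. It read 2.77, 2.88 and 2.94 in NDF and 7.41, 8.84 and 6.07 in CAF. The NDF arrays lay below the lower quartile, and the CAF arrays spread over 2.77 log2 units, with replicate 2 highest and replicate 3 lowest. The difference was 4.58 ± 0.63 (95% interval 3.07 to 6.09), or 23.9-fold, with an adjusted p of 0.0444. That call held in 2 of the 6 fits that left out 1 array. The adjusted p was 0.183, 0.199 and 0.1996 without NDF replicate 1, 2 or 3, and 0.11 without CAF replicate 1. The differences without NDF replicate 1, 2 or 3 were 4.53, 4.58 and 4.62, near that of all arrays. In those fits 11, 8 and 5 genes passed over all genes, against 94 with every array. Without CAF replicate 3 the difference was 5.26 (adjusted p = 0.0107), and with cyclic loess the adjusted p was 0.0558.

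At the level of single probe sets, 5 of the 11 were past the threshold as higher over 34945 probe sets, against 0.206% of all of them. They were the 3 of Cxcl1 and those of Cxcl2 and Cxcl5. Cxcl3 had an adjusted p of 0.0611 there, since more tests share the correction.

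**Figure D2:**
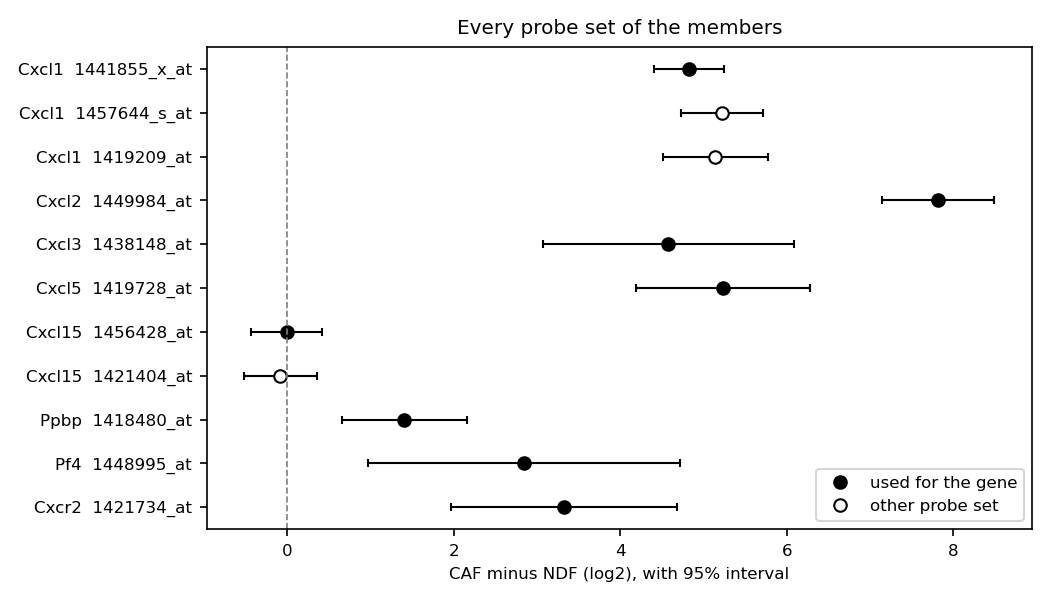
CAF minus NDF difference (log2) of each of the 11 probe sets with its 95% interval, from the fit over 34945 probe sets. Filled points are the probe sets used for the gene. The 3 Cxcl1 probe sets lie between 4.83 and 5.22, Cxcl2 lies at 7.82, and both Cxcl15 probe sets lie at 0 within their intervals.

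The platelet chemokines read higher in CAF and did not pass the threshold. Ppbp encodes the precursor of CXCL7, which platelets store and neutrophil proteases cleave to its active form. It read 4.38, 3.79 and 3.39 in NDF and 4.86, 5.54 and 5.38 in CAF. The groups did not overlap and were separated by 0.48. The difference was 1.41 ± 0.31 (95% interval 0.66 to 2.15, adjusted p = 0.161). Pf4 encodes platelet factor 4, which macrophages can also express. It read 5.18, 3.72 and 3.86 in NDF and 6.10, 6.33 and 8.88 in CAF. The groups did not overlap, and CAF replicate 3 was the highest array. The difference was 2.85 ± 0.79 (95% interval 0.97 to 4.72, adjusted p = 0.281). It was 1.96 without CAF replicate 3 (adjusted p = 0.143). A fit without both CAF replicate 3 and NDF replicate 1, added after seeing the data, gave 2.42 (adjusted p = 0.0199). Of 17 alternatives this was the 1 in which Pf4 passed. Elsewhere the adjusted p was up to 0.773, without NDF replicate 3.

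Few platelet markers passed beside these values. Of 13 measured platelet and megakaryocyte genes of 15 listed, 1 rose, against 0.489% of all genes, with a list median of 0.02. It was Selp, the adhesion molecule P-selectin, which endothelium also carries, at 3.81 ± 0.54 (adjusted p = 0.0461). P2ry12, next by p, differed by 1.20 ± 0.75 (adjusted p = 0.758) and read high on CAF replicate 3 alone, at 6.45 against 3.24 to 3.80 elsewhere. Itga2b, the platelet integrin chain, read 5.82 to 6.11 in NDF and 5.42 to 6.55 in CAF, and Gp9, a subunit of the von Willebrand factor receptor, 5.12 to 5.22 and 5.03 to 5.21. The summed level of the list was 9.60 to 10.08 in NDF and 10.49 to 11.14 in CAF on the log2 scale. Without Selp, a setting added after seeing the data, it was 9.44 to 9.99 in NDF and 9.75 to 9.97 in CAF, and the groups overlapped.

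Cxcl15 encodes lungkine, a chemokine known mainly from lung epithelium. Its brighter probe set read 4.60, 4.72 and 4.90 in NDF and 4.79, 4.62 and 4.80 in CAF, so the groups overlapped. The difference was -0.0045 ± 0.18 with a 95% interval of -0.42 to 0.41 (adjusted p = 0.997). The dimmer one, 1421404_at, gave -0.08. The sign of the difference turned positive with quantile normalisation again and with cyclic loess.

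Cxcr2, the receptor of the ligands with glutamate, leucine and arginine before the first cysteine, is carried in skin chiefly by infiltrating neutrophils. It read 4.70, 3.42 and 4.09 in NDF and 6.17, 7.89 and 8.12 in CAF. The lowest CAF array lay 1.47 above the highest NDF array. The difference was 3.32 ± 0.57 (95% interval 1.96 to 4.68), or 10.02-fold, and missed the threshold with an adjusted p of 0.0821. It passed without CAF replicate 1 (3.93, adjusted p = 0.0324), with an intensity trend (adjusted p = 0.0471) and with array quality weights (2.62, adjusted p = 0.0389). In the other 14 of 17 alternatives it missed the threshold. The adjusted p was 0.22 with a replicate block and at most 0.323, without NDF replicate 3. The related receptor gene Cxcr1 is not analysed here.

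Some neutrophil markers were higher on the same arrays and others were not. Of 11 measured neutrophil markers of 14 listed, 3 rose and 0 fell, against 0.489% and 0.0275% of all genes. Their median was 2.12. Without probe sets that can match several transcripts the median was 0.21. S100a8 and Clec4d drop out of that setting, since neither has another probe set. S100a8, a calcium-binding protein abundant in neutrophils and also made by stressed keratinocytes, read 7.93, 5.03 and 5.48 in NDF and 11.66, 12.55 and 12.34 in CAF (adjusted p = 0.0304). Its partner S100a9 read 8.48, 4.21 and 6.15 against 11.79, 12.82 and 12.17 (adjusted p = 0.0733). The lectin receptor Clec4d rose by 6.47 ± 0.51 (adjusted p = 0.00982) and the amplifying receptor Trem1 by 4.14 ± 0.51 (adjusted p = 0.0304), with 2.16 for its other probe set. Csf3r, the receptor for the neutrophil growth factor G-CSF, differed by 2.20 ± 0.48 (adjusted p = 0.158). The granule genes Mpo, Elane, Camp, Ngp and Ltf, which neutrophils transcribe mainly during their formation in bone marrow, differed by -0.18, -0.04, 0.07, 0.21 and -0.12. Mmp8, the gene of neutrophil collagenase, which is also a granule protein, read 3.64, 3.32 and 3.42 in NDF and 4.39, 6.29 and 6.06 in CAF, a difference of 2.12 ± 0.49 (adjusted p = 0.18). The summed level of the list was 7.53 to 9.49 in NDF and 12.98 to 14.16 in CAF. The share of each chemokine signal that came from sorted fibroblasts was not tested.

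The members did not move together among the CAF arrays. Among the 4 members past the threshold, Cxcl1 and Cxcl5 varied least, over 0.34 and 0.39 log2 units, and both were highest on CAF replicate 3. Cxcl2 and Cxcl3 were highest on CAF replicate 2. Il1b read 10.35, 12.06 and 9.70 on CAF replicates 1, 2 and 3, and Clec4d and Trem1 were likewise highest on replicate 2. So were the other measured neutrophil markers except the granule genes Mpo, Elane, Camp and Ltf, which were highest on replicate 3. Replicate 2 was also highest for every mast cell marker and for every endothelial marker except Cdh5 and Cldn5. The mast cell gene Cpa3 read 5.31, 6.56 and 4.03 on CAF replicates 1, 2 and 3. Pf4 was highest on CAF replicate 3, as were the macrophage genes C1qb, Cd163 and Lyz2, with Cd163 at 6.19, 6.27 and 10.59. P2ry12 of the platelet list was also highest there, at 3.45, 3.80 and 6.45 on CAF replicates 1, 2 and 3. In the same lists, the macrophage markers Tyrobp and Aif1 were highest on replicate 2 and the platelet marker Itga2b on replicate 1. Cxcr2 and Csf3r were lowest on CAF replicate 1. Pdgfra varied by 0.21. These orders rest on 3 arrays and on genes chosen from the marker lists after their values were seen, and they were not tested.

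**Figure D3:**
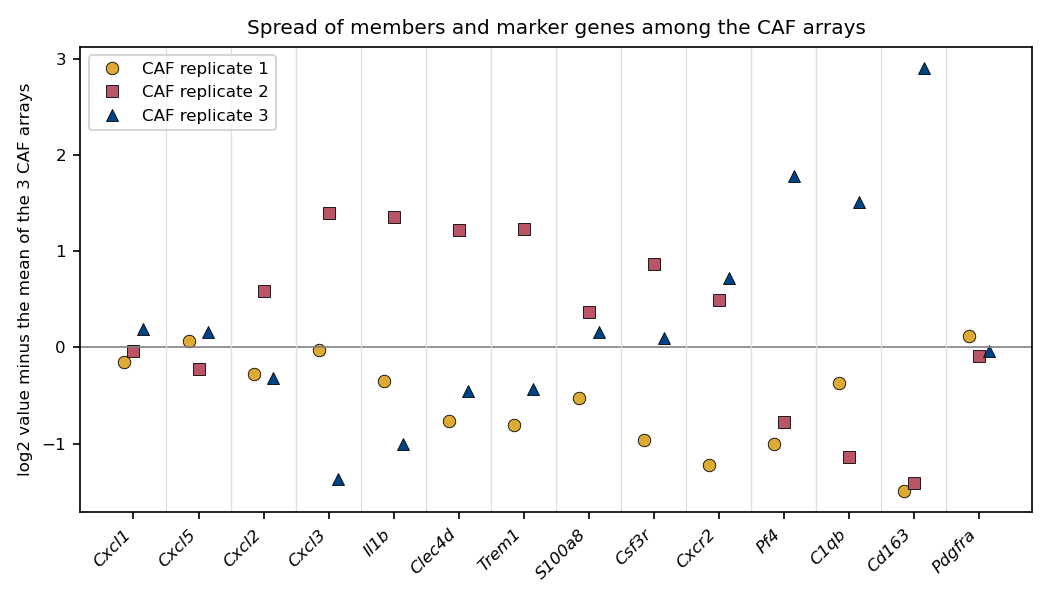
Log2 value on each CAF array minus the mean of the 3 CAF arrays, for 6 members, Cxcl1, Cxcl5, Cxcl2, Cxcl3, Cxcr2 and Pf4, and 8 other genes chosen after their values were seen. Cxcl1, Cxcl5 and Pdgfra stay within 0.23 of their means, Cxcl3 and Il1b have replicate 2 highest and replicate 3 lowest, and Pf4, C1qb and Cd163 have replicate 3 highest.

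Likeness over all 6 arrays was measured as the root mean square difference between profiles, each centred on its own mean, so that it depends on the size of the difference as well as on the spread. The profiles most like Cxcl1 were Lcn2, an iron-siderophore binding protein (0.35 log2 units), and the acute phase genes Saa3 (0.35) and Hp (0.37). For Cxcl5 they were the cytokine Il6 (0.50), Cxcl1 itself (0.58) and Hp (0.67). For Cxcl3 they were the leukocyte genes Clec4e (0.47), Ptprc (0.48) and Cd14 (0.49). No gene came as close to Cxcl2, whose nearest profiles were Clec4d (0.78), the wound keratin Krt6b (0.83) and Il6 (1.07). Clec4e missed the threshold at 3.91 ± 0.69 (adjusted p = 0.0856), and the other genes in these lists were past it. Clec4e and Ptprc each have a second probe set, which gave 2.31 and 0.89, so their likeness to Cxcl3 rests on the brighter one. Among the members, the nearest pair was Cxcl1 and Cxcl5, followed by Pf4 and Cxcr2 (0.75).

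Along chromosome 5, the members past the threshold did not form 1 unbroken block. In chromosomal order, the cluster runs Cxcl5, Ppbp, Pf4, Cxcl3, Cxcl15, Cxcl1 and Cxcl2. Cxcl15, between Cxcl3 and Cxcl1, differed by less than its standard error. The 5 nearest protein-coding genes on the Cxcl5 side, Alb, Afp, Afm, Albfm1 and Rassf6, differed by -0.11, -0.08, 0.02, -0.08 and 0.18. On the Cxcl2 side Mthfd2l, a mitochondrial folate enzyme gene, differed by -1.03 ± 0.81, and CAF replicate 3 was the only low array, at 4.25 against 7.19 to 7.46 on the other arrays. Beyond it lie growth factor genes of the epidermal growth factor family. Ereg, which encodes epiregulin, read 4.18, 5.24 and 5.09 in NDF and 9.93, 9.93 and 8.51 in CAF and rose by 4.62 ± 0.47 (adjusted p = 0.0186). Epgn differed by 1.05 ± 0.30 (adjusted p = 0.305) and Btc by 0.19 ± 0.43, while Areg is not analysed here. Of the 9 measured neighbours 1 rose past the threshold, against 0.489% of all genes, with a median of 0.02.

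**Figure D4:**
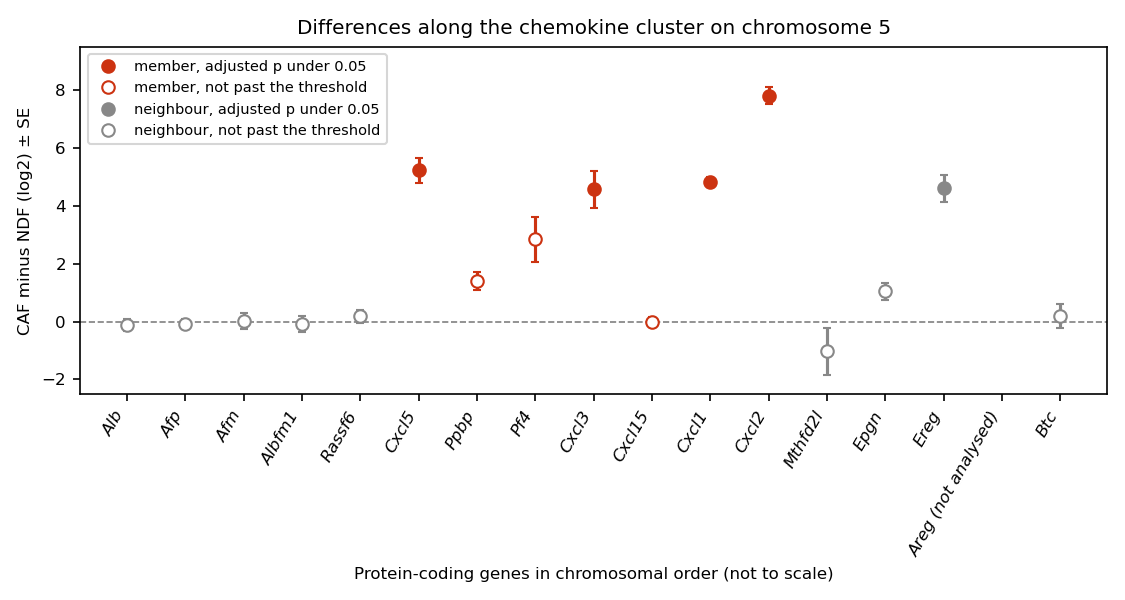
CAF minus NDF difference (log2) ± SE of the 7 ligand genes (red) and the 5 nearest protein-coding genes on each side (grey), in chromosomal order and not to scale, with filled points for an adjusted p under 0.05. Cxcl5, Cxcl3, Cxcl1 and Cxcl2 are high, Cxcl15 lies at 0 among them, and Ereg is the only filled neighbour.

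Many of the 8 other CXC chemokines attract lymphocytes or act in homeostasis. None of 8 was past the threshold in limma, with 3 higher at an unadjusted p under 0.05, where 4.93% of all genes were, and a median of 0.94. Cxcl14, a chemokine of resting skin, read 10.21 ± 0.23 in NDF and 11.57 ± 0.36 in CAF (SD, n = 3; a difference of 1.37 ± 0.25, adjusted p = 0.0913). Cxcl13, a B cell chemokine, differed by 2.55 ± 0.84 (adjusted p = 0.397). Second probe sets gave 2.23 for Cxcl14 and 0.99 for Cxcl13. The interferon-induced Cxcl9 and Cxcl10 read high on CAF replicate 3 alone, at 7.51 against 2.90 to 3.86 elsewhere and at 6.50 against 3.93 to 4.37. The second Cxcl9 probe set gave a difference of 0.0028, against 1.82 for the one used here. The contrast between these genes and the members was not tested.

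Other receptors and decoy receptors gave no call among 8 measured of 9, with a median of 0.16. An unadjusted p under 0.05 was met by 3 as higher, against 4.93% of all genes. Ccrl2, a non-signalling receptor that activated neutrophils and macrophages carry, differed by 2.28 ± 0.41 (adjusted p = 0.0922) and Cxcr4, the receptor of Cxcl12, by 2.00 ± 0.44 (adjusted p = 0.157). Ackr1, which binds many chemokines on venules and red cells, differed by -0.17 ± 0.49.

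Of 18 measured inducing cytokines, receptors and NF-κB signalling genes of 21 listed, 1 rose, against 0.489% of all genes, with a median of 0.32. An unadjusted p under 0.05 was met by 6 as higher and 0 as lower, against 4.93% and 4.02% of all genes. Every CAF array lay above every NDF array for 7 of the 18, against 6.78% of all genes. Il1b, the gene of interleukin 1β, which strongly induces these chemokines, read 5.02, 5.22 and 5.18 in NDF, so its CAF arrays were all at least 4.48 higher (5.56 ± 0.56, adjusted p = 0.0186). Nfkbiz, an inducible NF-κB cofactor, differed by 2.04 ± 0.42 (adjusted p = 0.128). The other inducers Il1a, Tnf and Il17a differed by 0.50, 0.18 and 0.05 and read no more than 4.42 on any array. Among the receptor genes, Il1r1, Tnfrsf1a, Il17ra and Tlr2 differed by 0.35, 0.42, 0.33 and 0.20, and Tlr4, Il1rap and Il17rc by -0.59, -0.31 and -0.0049. None of these 7 passed in limma, nor did any at an unadjusted p under 0.05. Further probe sets gave -1.68 to 0.70 for Tlr4 and -0.27 to 0.42 for Il1rap.

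Of 9 genes that set the stability of chemokine mRNA, 1 rose, against 0.489% of all genes, with a median of 0.29. Zc3h12a, which encodes the ribonuclease Regnase-1 that degrades inflammatory transcripts, rose from 6.36 ± 0.31 to 8.60 ± 0.54 (SD, n = 3), a difference of 2.24 ± 0.32 with an adjusted p of 0.0461. The second Zc3h12a probe set gave 0.57. Zfp36, whose product tristetraprolin promotes decay of such mRNA, differed by 1.79 ± 0.28 (adjusted p = 0.0633). Elavl1, which stabilises AU-rich transcripts, differed by -0.08.

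Of 14 measured genes of 17 for signalling below Cxcr2, 1 rose, against 0.489% of all genes, with a median of 0.26. Pik3cg, the leukocyte phosphoinositide 3-kinase gene, rose by 2.27 ± 0.29 (adjusted p = 0.0333). The second Pik3cg probe set gave 0.16. Pik3r5, its regulatory subunit, differed by 1.10 ± 0.16 (adjusted p = 0.0518). The widely expressed Gnai2 and Gnb1 differed by 0.32 and -0.03.

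Of 17 measured genes of 18 that present chemokines on matrix or cleave them, 1 rose, against 0.489% of all genes. Their median was -0.04. Mmp12, the macrophage elastase that can trim these chemokines, rose from 3.07 ± 0.27 to 6.60 ± 0.75 (3.52 ± 0.39, adjusted p = 0.0234). Mmp9, another protease that can process them, differed by 2.93 ± 0.43 (adjusted p = 0.0505). The proteoglycan cores Sdc1, Sdc2, Sdc3 and Sdc4 differed by -0.10, -0.74, -0.26 and 0.15. Of the list, only Sdc2 had every CAF array below every NDF array (adjusted p = 0.613), as did 8.66% of all genes. Every CAF array lay above every NDF array for 5, against 6.78% of all genes. Among them was Mmp13, with the largest difference of the list (3.65 ± 0.75, adjusted p = 0.128).

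Of 11 measured neutrophil growth factors and other attractants of 12 listed, 2 rose, against 0.489% of all genes, with a median of 2.20. Il6, which in inflamed tissue shapes leukocyte recruitment, rose by 5.77 ± 0.23 (adjusted p = 0.000382), and Csf2rb, the shared receptor chain for GM-CSF, rose by 3.83 ± 0.37 (adjusted p = 0.0186), with 2.79 for its other probe set. Csf3, which encodes G-CSF, read 4.71, 4.25 and 3.90 in NDF and 5.83, 6.19 and 6.57 in CAF (1.91 ± 0.29, adjusted p = 0.0548). Of 26 genes past the threshold among all lists and nearest profiles, 5 stayed past it whichever array was left out: Cxcl1, Cxcl2, Il6, Krt6b and Lcn2.

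**Figure D5:**
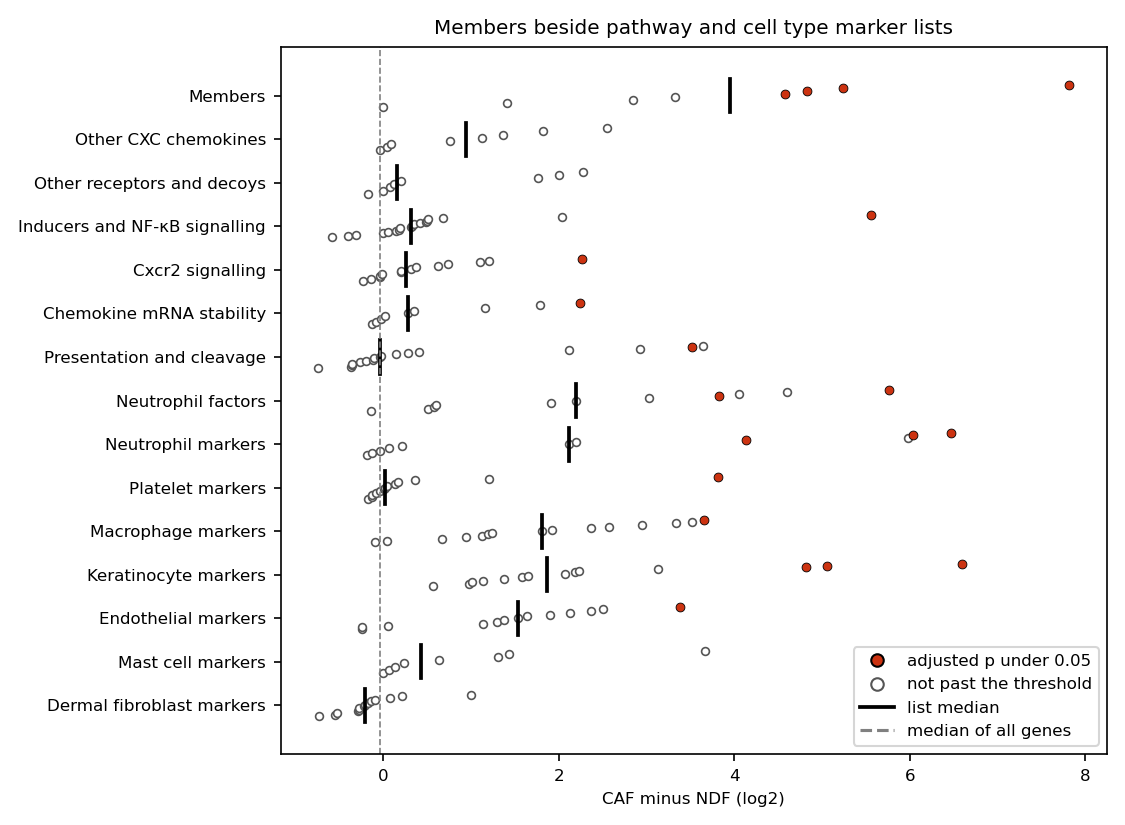
CAF minus NDF difference (log2) of every measured gene in the family and in 14 pathway and marker lists. Filled points have an adjusted p under 0.05, black bars are list medians and the dashed line is the median of all genes, -0.04. The family median of 3.95 lies beside 2.12 for neutrophil, 1.81 for macrophage, 0.02 for platelet and -0.21 for fibroblast markers.

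Lists of markers for other cells that can make or carry these chemokines had medians above 0, except for the fibroblast list. Of all genes, 0.489% rose past the threshold and 6.78% had every CAF array above every NDF array. An unadjusted p under 0.05 was met by 4.93% of all genes as higher and 4.02% as lower. Of 15 macrophage markers 1 rose, Tyrobp at 3.65 ± 0.32 (adjusted p = 0.0134), 9 had an unadjusted p under 0.05 in that direction and 12 showed no overlap, with a median of 1.81 and a summed level of 9.09 to 9.96 in NDF and 10.90 to 12.99 in CAF. Of 14 measured keratinocyte markers of 15, 3 rose, Krt6a, Krt6b and Krt16, 12 had an unadjusted p under 0.05 in that direction and 14 showed no overlap, with a median of 1.86 and a summed level of 12.77 to 12.87 in NDF and 13.53 to 14.52 in CAF. Of 13 endothelial markers 1 rose, Lyve1 at 3.38 ± 0.36 (adjusted p = 0.0218), 10 had an unadjusted p under 0.05 in that direction and 10 showed no overlap, with a median of 1.53 and summed levels of 10.23 to 10.68 and 10.70 to 12.08. None of 8 mast cell markers passed in limma, with 3 higher at an unadjusted p under 0.05, a median of 0.44 and summed levels of 7.32 to 7.86 and 7.56 to 10.28. None of 14 dermal fibroblast markers passed, while an unadjusted p under 0.05 was met by 1 in the higher and 3 in the lower direction. Their median was -0.21, with summed levels of 16.23 to 16.32 and 15.93 to 16.24. Their part in the chemokine values was not tested.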

How the data were processed

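Per the labels' protocols, RNA of sorted cells went through 1 round of WT-Ovation amplification and was hybridised to Affymetrix mouse arrays. The deposited values are log2 intensities. GCOS and RMA are named in the submitters' processing notes, with no version in the sources used here. RMA quantile normalises arrays and compresses low values, so total intensity is lost. No scanner file or detection call was used. The number of arrays limits the precision.

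Of 45101 probe sets 64 are controls, 34945 name 1 gene in the platform annotation, 932 several, and 9160 are unnamed. The probe set of highest mean stood for a gene. limma 3.58.1 in R 4.3.3 (lmFit, eBayes, group as the only term, two-sided) was run on all 6 arrays, and the procedure was tested on simulated data. Lists were described by counts and medians, and summed levels are log2 sums of linear intensities. Promoters came from RefSeq (GRCm38.p6) and were searched in Python 3.11.15.

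The members and lists were chosen with earlier results of these data known. Named genes were every member, listed genes past the threshold, up to 2 others of smallest p in a list, a few fixed genes (Pdgfra, S100a8, S100a9, Cxcr1, Itga2b, Gp9, Il1b, Il17a, Csf3, Csf3r), the 3 nearest profiles of each called member and called neighbours. Further genes of the lists were named after their values were seen. The alternatives were a replicate block, 3 other scalings, a filter on dim genes, 3 treatments of probe sets, 2 other priors, array weights and leaving out each array. A fit without both CAF replicate 3 and NDF replicate 1 was added after seeing the data.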

Additional observations from a re-analysis of the deposited data

How the results depend on the processing

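Cxcl1 and Cxcl2 stayed past the threshold in all 18 alternatives, with differences of 4.71 to 5.14 and 7.53 to 7.98. The number of member genes past it was 4. It was 2 with a replicate block, ranged from 2 to 4 when 1 array was left out, and was 3 to 5 in the other alternatives. The number over all genes was 94. It was 20 with the replicate block, 61 with every probe set on its own, 155 with an intensity trend and 438 with array quality weights, and ranged from 5 to 156 when 1 array was left out. Same-numbered arrays correlated at -0.15, 0.11 and -0.01 in their deviations from the group means. With 3 arrays per group these deviations are tied to each other, so the values cannot show whether equal numbers mark paired samples. Cxcl15 changed sign with quantile normalisation again (0.0053) and cyclic loess (0.024), and ranged from -0.0758 to 0.0745 when 1 array was left out. The filter on dim genes left 3 members, Cxcl1, Cxcl2 and Cxcl5, so it gives no value for the others. The kappa B consensus was met in 3 member promoters, against 4 in its looser form. Signal near the floor limits what can be said of Cxcl2, Cxcl3, Ppbp, Cxcl15 and Cxcr2 in NDF. The same holds for Cxcl5 and Pf4 on most NDF arrays. This limit includes the folds of these genes and the rank of Cxcl2. Cxcl15 read as low in CAF, so its small difference need not mean equal transcript levels. The cause of the changes between settings was not tested.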

Other observations

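The 10 letters GGGAATTTCC shared by the Cxcl1, Cxcl2 and Cxcl3 promoters were also found in the RefSeq promoter windows of 26 other genes, of which 16 were measured. None of the 16 was past the threshold in limma. An unadjusted p under 0.05 was met by 1 higher and 1 lower gene, against 4.93% and 4.02% of all genes. The median difference of the 16 was -0.10. The higher one was Nfkbia, the inhibitor that NF-κB itself induces, at 12.48, 12.90 and 12.72 in NDF and 13.06, 13.31 and 13.21 in CAF (0.49 ± 0.19, adjusted p = 0.506). The lower one was Lyzl4, a lysozyme-like gene, at -0.39 ± 0.16 (adjusted p = 0.535). Of 874 measured genes outside the family whose promoter holds the wider kappa B consensus, 7 rose and 0 fell, or 0.801% higher, against 0.422% of the 14445 measured genes with any promoter in the table. The overlap was not tested, and these searches were made after the member promoters had been seen.

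Slc14a1, a urea transporter gene, was among the 3 profiles nearest to Cxcr2 (0.26 log2 units), with Cd244a (0.25) and Ccl6 (0.29). It rose by 3.80 ± 0.51 (adjusted p = 0.0412), and its second probe set gave 1.02. The second probe sets of Cd244a and Ccl6 gave 0.22 and 4.10. The profiles nearest to Pf4 were Chil3 (0.39), C1qb (0.39) and AI467606 (0.41, with 0.84 for the difference of its second probe set), and none of these passed. These 6 genes were named after their values were seen.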
